A study of Mus musculus with 16 samples.

Results

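Livers of old mice that received metformin every other week (EOW) were compared with livers of mice kept on the standard diet (SD). The comparison held 9 of the 13 mice of the series, 5 EOW and 4 SD, read on 6 and 5 of the 16 arrays. The study's figure of these arrays gives 4 EOW mice and not 5, without naming them, so its results rest on another set of mice. Of the 25697 probes of the Illumina array, 10940 were detected on every array of EOW or on every array of SD, and they read 7702 genes. Both groups were male C57BL/6 mice, bought at 104 weeks of age and held on the purified AIN-93G diet for a month before the groups were formed. EOW mice then had that diet with 1% metformin in alternate weeks for 17 weeks, while SD mice stayed on the diet alone. Livers were taken from non-fasted mice under ketamine and xylazine. By the study's text, EOW mice were in a metformin period when non-fasted blood was taken at the end of treatment and when livers were collected. The hour of collection is not given in the sources used here. The question was which hepatic transcripts differ after intermittent metformin started late in life. Each mouse is a separate animal, and 4 further mice, on metformin for 2 weeks a month (2WM), entered the fit only to estimate the spread between mice.

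Metformin is a biguanide that is carried into hepatocytes by organic cation transporters, slows respiratory complex I and lowers glucose output by the liver. The liver makes cholesterol, fatty acids and most plasma proteins, and it clears drugs through oxidation, hydrolysis and conjugation. In male rodents, many liver genes follow the pulses of growth hormone, which are relayed by STAT5, so that major urinary proteins and several steroid-handling enzymes are far more abundant in males than in females.

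Levels are given on the log2 scale relative to the mean of all probes of the same array, after each array was scaled to 1 common SD. A difference of 1 is therefore only about a factor of 2 in signal, from which no background was subtracted. A level below 0 is below the array mean. Differences are EOW minus SD. The median signal ran lower in EOW arrays, at 127.2 to 164.5, than in SD arrays, at 145.3 to 184.9, with overlap. The probes detected were 11457 to 12791 in EOW and 11698 to 12953 in SD, and the number of arrays limits the precision. EOW mouse 4 stood apart. Its profile correlated with those of the other 8 mice at r = 0.840 to 0.884 across probes, whereas the other 8 correlated with each other at 0.950 to 0.985. On its array 209 probes lay more than 1 log2 unit above the highest of the other mice and 343 more than 1 below the lowest, against 48 probes on either side for EOW mouse 5 and at most 14 for each of the other 7 mice. Many of the low ones were at background. 305 probes had a detection p of 0.5 or more in EOW mouse 4 and were detected on every other EOW and SD array, a state found for 6 probes in EOW mouse 5 and 0 in each of the other 7 mice. Itih4, a plasma protein of hepatocytes, had a signal of 81.0 in EOW mouse 4 and of 22424 to 30987 elsewhere. The ribosomal protein probe of Rps10 read 71.9 against 5684 to 9425. For 116 genes of these probes another probe was detected on all the other arrays, and in 114 of them it stayed within a factor of 2 of the range of the other mice in EOW mouse 4. Among the genes of the 343 low probes, 133 had another tested probe. That probe was also more than 1 unit low in 7, inside the range of the other mice in 67 and below it by less in 49. On the high side 26 genes had one, also more than 1 unit high in 14, above the range by less in 10 and inside it in 3. The bright probes held T cell genes. The markers of T and NK cells (6 of the 18 on the array tested) had a median deviation from the SD mean of 3.99 in EOW mouse 4, against -0.21 to 0.35 in the other EOW mice and -0.24 to 0.33 in SD mice. Their summed signal was 33914 in that mouse, 1647 to 2154 in the other EOW mice and 1349 to 2158 in SD mice. Of the 6, Klrd1, Cd3g, Cd3d, Cd8b1 and Ccl5 had log2 levels of 2.85 to 5.84 in EOW mouse 4, whereas Thy1, whose probe was at background in that mouse, was at -1.57 there and at -0.54 to 0.10 in the other EOW mice. Cd4, Cd8a, Gzmb and Klrb1c were detected on no array. The part of this array in the results below was measured by leaving it out, and why it stood apart was not tested. Of the 8 hepatocyte markers on the array, 6, Ttr, Apoa1, Trf, Serpina1a, Cps1 and Hnf4a, were detected on every array of both groups, with differences of 0.05 to 0.44 and a median of 0.24, whereas the probe of Alb was detected on 2 EOW arrays and 1 SD array and that of Fgb on none. In bulk tissue, fewer cells of a type and less RNA per cell cannot be told apart.

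No probe reached an adjusted p under 0.05 in limma, and the smallest adjusted p was 0.0546. At an unadjusted p under 0.05 there were 1533 probes (14% of those tested), 620 higher (5.67%) and 913 lower (8.35%) in EOW livers. At an adjusted p under 0.30, the false discovery rate of the study's own criteria, there were 1005 (9.19%). Of the 7702 genes, each read by its brightest detected probe, 498 were higher (6.47%) and 601 lower (7.8%) at an unadjusted p under 0.05, and 486 (6.31%) and 609 (7.91%) without EOW mouse 4. The difference was positive in 3688 of the 7702 genes (47.9%). The groups did not overlap in 152 genes that had every EOW mouse on top (1.97%) and in 181 that had every EOW mouse at the bottom (2.35%). The differences were mostly small, with the 5th percentile of genes at -0.48 and the 95th at 0.43. With all mice, 28 genes were above 1 and 75 below -1. In 206 of the 7702 genes the probe read was at background in EOW mouse 4 alone, which lowers the EOW mean. Of these, Itih4 was at -1.37, with its other detected probes at -0.23 and -0.18. Bcl6 was at -1.96, and at -1.30 without that mouse. The tails were not counted without EOW mouse 4. The split between higher and lower depends on the centring: 40.4% of the probes at an unadjusted p under 0.05 were higher here, 47.1% after quantile normalization, 47% after neqc (background correction with quantile normalization) and 15.1% after centring each array on its median, which moved the median probe to -0.091. Because no probe passed the adjusted threshold, genes are described below as higher or lower with their values, and a list of genes is described by how many members were past an unadjusted p of 0.05, beside these shares. Where an adjusted p under 0.05 is given below for a gene, it comes from a fit with 1 mouse left out. The fits of that gene with any other mouse left out did not pass, unless given. Leaving out a mouse that lies near the other group widens the difference, so such a p is no call. No probe passed without SD mouse 1.

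**Figure D1:**
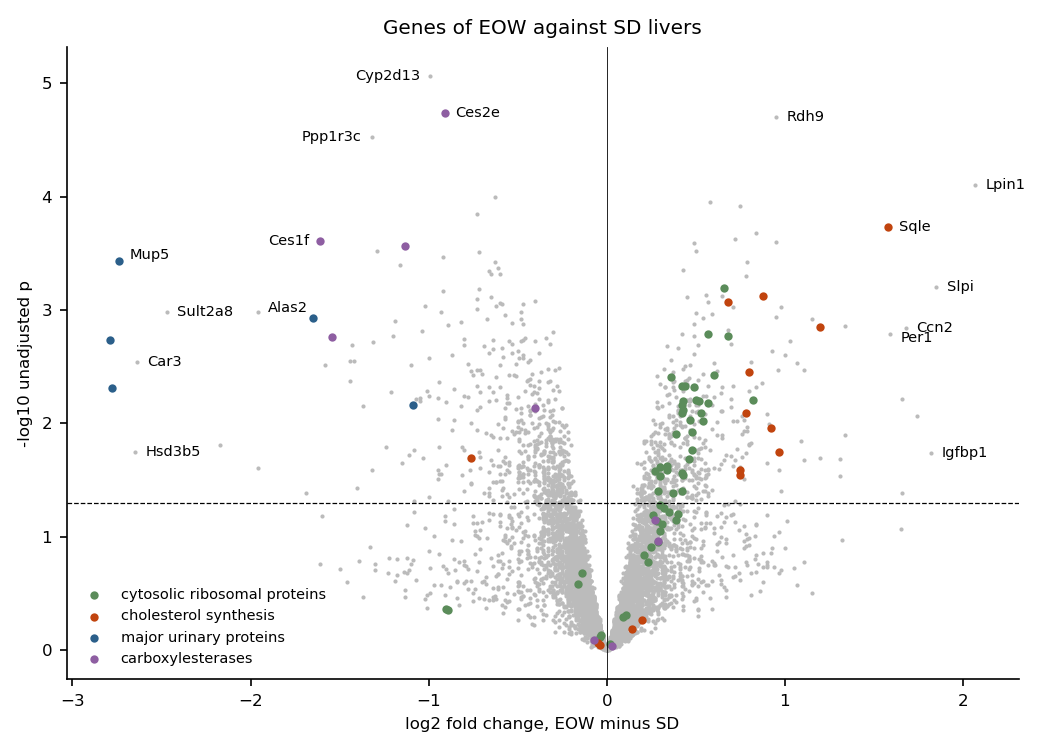
Difference between EOW and SD livers for 7702 genes, as log2 fold change (x axis) against -log10 of the unadjusted limma p (y axis), with 4 gene groups coloured and the dashed line at an unadjusted p of 0.05. Most cytosolic ribosomal proteins and cholesterol synthesis enzymes lie right of 0, all 5 major urinary proteins lie left of -1, and the carboxylesterases fall on both sides.

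The genes with the smallest p were a retinoid and steroid dehydrogenase, a cytochrome P450, a carboxylesterase and a glycogen-targeting subunit. Rdh9, which encodes a retinol and hydroxysteroid dehydrogenase of hepatocytes, was at 3.15, 3.36, 3.64, 3.33 and 3.45 in EOW mice 1 to 5, against 2.32, 2.25, 2.24 and 2.92 in SD mice 1 to 4. The groups did not overlap, and SD mouse 4 was nearest to EOW (difference 0.95 ± 0.15 SE, adjusted p = 0.0546, and 0.00531 without SD mouse 4). Cyp2d13 was at 0.32, 0.45, 0.30, -0.26 and -0.05 in EOW mice, against 1.16, 1.06, 1.23 and 1.11 in SD mice. SD mice were tightly grouped and every EOW mouse was lower (-0.99 ± 0.14, adjusted p = 0.0546, 0.0492 without EOW mouse 4 and 0.0244 without EOW mouse 2). Ces2e, an intestinal and hepatic carboxylesterase, was at 0.04, 0.59, 0.26, -0.07 and 0.36 in EOW mice, against 1.12, 1.15, 1.08 and 1.22 in SD mice, again without overlap (-0.91 ± 0.14, adjusted p = 0.0546, and 0.0244 without EOW mouse 2). Ppp1r3c, the subunit PTG that brings protein phosphatase 1 to glycogen, was at 3.28, 3.95, 3.46, 3.55 and 2.98 in EOW mice, against 5.08, 4.71, 4.68 and 4.57 in SD mice. This was the widest of these 4 differences (-1.32 ± 0.21, adjusted p = 0.065). It was called without EOW mouse 2 (adjusted p = 0.0284) and without 2WM mouse 2 (0.0429). Ldah, a hydrolase of lipid droplets, was lower without overlap (-0.63 ± 0.11, adjusted p = 0.121), and another of its probes gave -0.76 with an adjusted p of 0.0546. Id2, an inhibitor of basic helix-loop-helix factors, was at 2.22 to 2.66 in EOW mice and 2.80 to 3.50 in SD mice (-0.73 ± 0.14, adjusted p = 0.121). Among the higher genes, the membrane protease Tmprss2 (0.75 ± 0.14), the kinesin linker Sybu (0.84 ± 0.16) and the peptide transporter Slc15a2 (0.72 ± 0.14) each had an adjusted p of 0.121, with Slc15a2 at 0.0244 without EOW mouse 2. In SD mice Slc15a2 was at -0.80 to -0.72. That is the level of Map3k6 (-0.80 to -0.73), which no SD array detected, so the narrow SD spread of Slc15a2 lies near background.

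The promoter of Rdh9 is shown because it carries an E-box, the site CACGTG of basic helix-loop-helix factors, which 8.09% of the 27025 genes of the RefSeq promoter table hold within 250 bases before to 50 after a start (the site reads alike on both strands). In build GRCm38.p6, the 250 bases before the start of Rdh9 on the plus strand are chr10:127776155-127776404, and the capitals mark the E-box, whose first base is 201 bases before the start.
Rdh9: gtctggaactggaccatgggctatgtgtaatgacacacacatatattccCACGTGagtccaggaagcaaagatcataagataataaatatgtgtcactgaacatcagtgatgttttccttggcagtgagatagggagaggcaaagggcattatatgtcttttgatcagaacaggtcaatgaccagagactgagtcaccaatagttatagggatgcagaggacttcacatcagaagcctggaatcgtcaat
A match of letters is a description and no measure of binding.

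**Figure D2:**
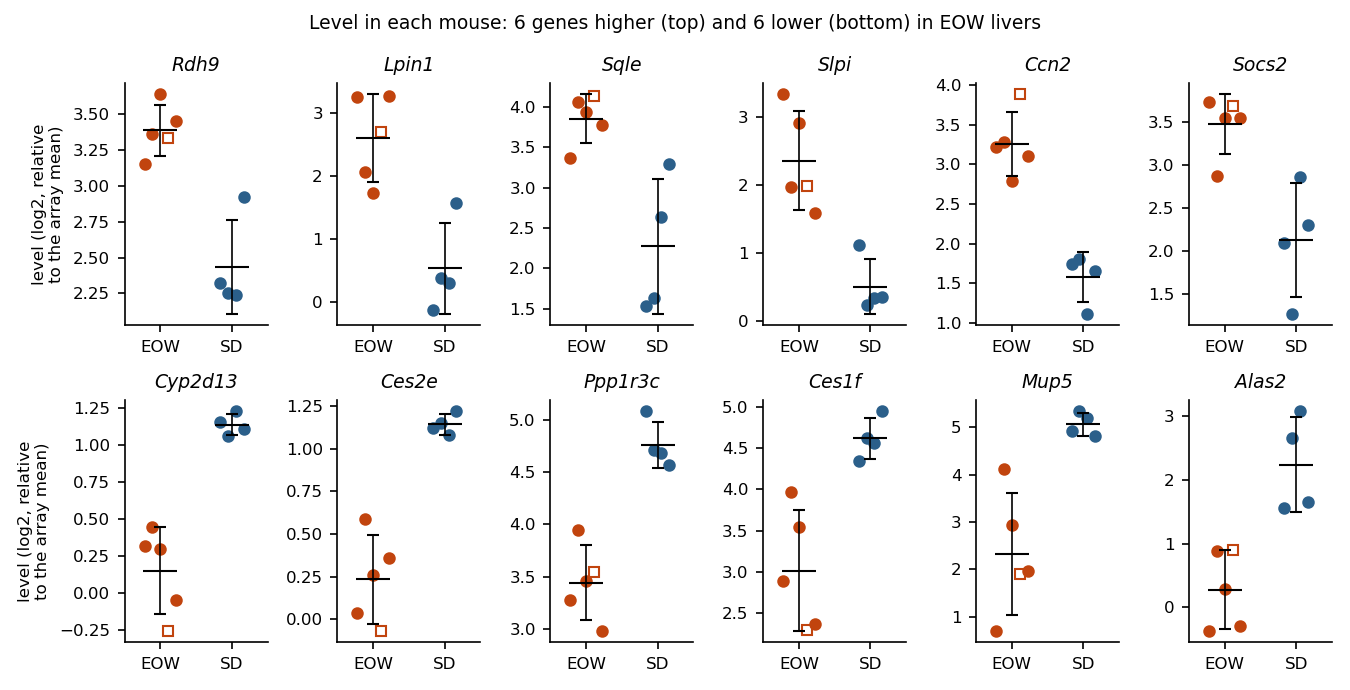
Level of 12 genes in each mouse (log2, relative to the array mean), with EOW mice in orange left of SD mice in blue, EOW mouse 4 as an open square, and the mean ± SD in black. No EOW mouse overlaps an SD mouse in any of the 12 panels, and SD mouse 4 is the SD mouse nearest to EOW in Rdh9, Lpin1 and Sqle.

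Cholesterol synthesis enzymes were higher in EOW livers along most of the pathway. Of 15 measured members, 10 were higher and 1 lower at an unadjusted p under 0.05, against 6.47% and 7.8% of all genes, with a median difference of 0.75 against -0.01 over all genes (0.92 without EOW mouse 4). None had an adjusted p under 0.05. At the entry of the pathway, Hmgcs1, the cytosolic HMG-CoA synthase, was at 6.24, 6.60, 6.28, 5.70 and 6.37 in EOW mice, against 5.06, 5.12, 5.35 and 5.90 in SD mice. EOW mouse 4 and SD mouse 4 crossed over (0.88 ± 0.20, adjusted p = 0.15). In the mevalonate arm, Mvd, the decarboxylase (0.80 ± 0.22), Idi1, the isopentenyl diphosphate isomerase (0.68 ± 0.16), and Fdps, the farnesyl diphosphate synthase (0.97 ± 0.36), were higher with adjusted p of 0.197, 0.151 and 0.268. Sqle, the squalene epoxidase, was at 3.37, 4.06, 3.94, 4.13 and 3.77 in EOW mice, against 1.54, 1.63, 2.63 and 3.29 in SD mice. It was the member with the largest difference and the only one without overlap (1.58 ± 0.31, adjusted p = 0.121, and 0.0263 without SD mouse 4). Msmo1, the sterol C4-methyl oxidase, was at 4.10 to 5.49 in EOW mice and 2.81 to 4.30 in SD mice (1.20 ± 0.30, adjusted p = 0.164). Sc5d, the lathosterol desaturase near the end of the pathway, ran the other way. It was at -0.07, 0.94, 1.18, 0.25 and -0.39 in EOW mice, against 0.68, 1.23, 1.35 and 1.32 in SD mice (-0.76 ± 0.29, adjusted p = 0.278), while Tm7sf2, Ebp and Dhcr7 differed by -0.05, -0.04 and 0.14. The median deviation of the 15 enzymes from the SD mean was 0.40, 1.22, 0.90, -0.13 and 1.02 in EOW mice 1 to 5, against -0.47, 0.05, -0.03 and 0.41 in SD mice 1 to 4, so that EOW mouse 1 and SD mouse 4 met and EOW mouse 4 lay among the SD mice. Srebf2, whose product drives this pathway, was at 0.67 to 1.07 in EOW mice and 0.21 to 0.40 in SD mice without overlap (0.58 ± 0.11, adjusted p = 0.121). Of the 6 genes measured for SREBP2 control and cholesterol uptake it was the only one past an unadjusted p of 0.05, and Insig1, which retains the SREBP complex in the endoplasmic reticulum, differed by -0.24 ± 0.28 (-0.04 without SD mouse 2).

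**Figure D3:**
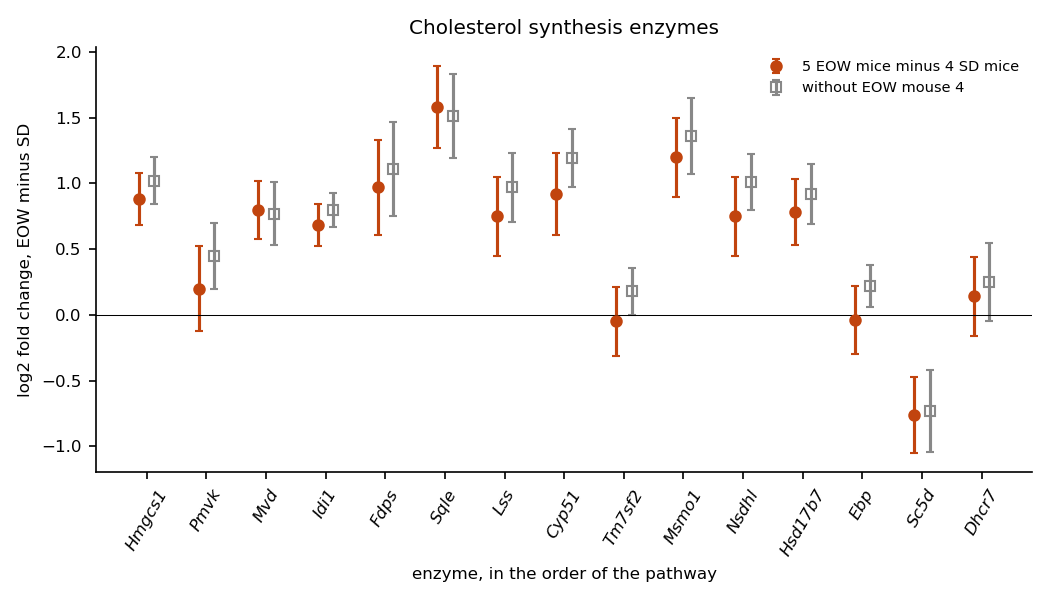
Log2 fold change, EOW minus SD, of the 15 measured cholesterol synthesis enzymes in the order of the pathway (points, bars are the standard error of the fit), with all mice and without EOW mouse 4. Sqle has the largest value at 1.58 and Sc5d is the lowest at -0.76.

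The letters of a sterol regulatory element, searched as TCACNCCAC on both strands, stood in the promoter of 1.44% of genes and in 1 of the 13 cholesterol synthesis genes with a promoter in the table. That gene is Hmgcs1, which is shown for this reason. The 250 bases before its start on the plus strand are chr13:119690101-119690350 (GRCm38.p6, RefSeq), and the capitals mark the element, which begins 137 bases before the start.
Hmgcs1: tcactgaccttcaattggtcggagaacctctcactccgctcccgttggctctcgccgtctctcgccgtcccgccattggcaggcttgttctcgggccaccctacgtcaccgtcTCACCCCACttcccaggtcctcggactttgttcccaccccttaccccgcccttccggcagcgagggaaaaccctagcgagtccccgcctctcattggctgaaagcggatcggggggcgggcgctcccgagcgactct
In the promoter windows of the other 12 the exact letters were not found.

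Genes of fatty acid synthesis were mostly lower. Of 17 measured members, 0 were higher and 5 lower at an unadjusted p under 0.05, against 6.47% and 7.8% of all genes. The median difference was -0.38 (-0.34 without EOW mouse 4 and -0.25 without EOW mouse 5). Mlxipl, which encodes the carbohydrate-responsive factor ChREBP, was at 3.35, 3.65, 3.35, 2.86 and 3.36 in EOW mice, against 3.72, 3.65, 4.05 and 4.04 in SD mice. Only EOW mouse 2 reached the SD range (-0.55 ± 0.14, adjusted p = 0.172). Srebf1, the lipogenic counterpart of Srebf2, was at 0.92, 1.41, 1.24, 1.25 and 0.36 in EOW mice, against 1.62, 2.78, 1.25 and 2.29 in SD mice (-0.95 ± 0.29, adjusted p = 0.216). Scd1, the stearoyl-CoA desaturase, was at 3.56 in EOW mouse 1 and 4.90 in EOW mouse 5, while EOW mice 2, 3 and 4 were at 6.52, 6.36 and 6.26 and SD mice at 6.37 to 6.90 (-1.08 ± 0.49, adjusted p = 0.353, and -0.59 without EOW mouse 1). Elovl3, which elongates very long saturated chains and is male-biased, was at -0.95 to -0.67 in EOW mice and at -0.53, 1.22, 1.76 and -0.27 in SD mice (-1.40 ± 0.60, adjusted p = 0.327). Its EOW values lie near background, at the level of Serpina4-ps1 (-0.86 to -0.67), which no EOW array detected. The place of Elovl3 among the 5 lower members is therefore no support. The 4 positive members, among them Acaca, the acetyl-CoA carboxylase, and Acss2, the acetyl-CoA synthetase, were at 0.12 to 0.14. In triglyceride synthesis, the lipins were the higher genes. Lpin1, the phosphatidate phosphatase and nuclear coactivator, was at 3.25, 2.05, 1.73, 2.69 and 3.27 in EOW mice, against -0.13, 0.38, 0.29 and 1.56 in SD mice. It had the largest positive difference of all genes tested (2.07 ± 0.37, adjusted p = 0.121, and 0.0349 without SD mouse 4). Lpin2 was at 1.60 to 2.25 in EOW mice and 0.29 to 1.57 in SD mice, with EOW mouse 4 and SD mouse 4 only just apart (0.93 ± 0.25, adjusted p = 0.185). Agpat2, which makes the phosphatidate that lipins use, was lower (-0.56 ± 0.22, adjusted p = 0.294).

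Oxidation of fatty acids was described by 16 genes of beta-oxidation and ketogenesis, with a median of -0.19. Of these, 13 were negative, where 47.9% of all genes were positive. Past an unadjusted p of 0.05 were 2 of the 16, close to the share of all genes (1099 of 7702). These 2 were Decr1, the dienoyl-CoA reductase (-0.60 ± 0.21, adjusted p = 0.252), and Cpt2, the inner carnitine palmitoyltransferase (-0.57 ± 0.22, adjusted p = 0.285), and for both SD mouse 3 was the highest SD mouse, at 1.67 and 4.15, without which the differences were -0.36 and -0.34. Of 16 PPAR alpha targets, 1 was higher and 3 lower at an unadjusted p under 0.05, against 6.47% and 7.8% of all genes. The lower ones include Cidea, which passed the detection filter only through SD arrays, so that its place in this count is no support. Angptl4, a secreted inhibitor of lipoprotein lipase, was at 3.74, 3.60, 2.65, 1.98 and 3.83 in EOW mice, against 1.15, 1.27, 3.35 and 1.62 in SD mice, so that SD mouse 3 lay within the EOW range (1.31 ± 0.50, adjusted p = 0.278). The groups did not overlap in Acaa1b and Creb3l3. Acaa1b, a peroxisomal thiolase, was at 5.35, 5.50, 5.55, 5.07 and 3.56 in EOW mice, against 6.04 to 6.35 in SD mice (-1.21 ± 0.36, adjusted p = 0.208). Creb3l3, the hepatic factor CREBH, was at 1.87 to 2.30 in EOW mice and 2.44 to 3.14 in SD mice (-0.59 ± 0.15, adjusted p = 0.176). Cidea, a lipid droplet protein, was detected on every SD array and on no EOW array, and is given with the other such genes below.

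In gluconeogenesis and glucose use, 1 gene of 14 was higher and 1 lower at an unadjusted p under 0.05, close to the shares of all genes (6.47% and 7.8%). The median was 0.0 (3 higher and 2 lower without EOW mouse 4). Pck1, the cytosolic phosphoenolpyruvate carboxykinase of gluconeogenesis, was at 2.78, 1.31, 2.27, 0.78 and 3.66 in EOW mice, against 0.16, 0.96, 1.17 and 0.98 in SD mice. Only EOW mouse 4 reached the SD range (1.34 ± 0.46, adjusted p = 0.248, and 1.69 with an adjusted p of 0.131 without that mouse). Ppargc1a, the coactivator PGC-1alpha, was at 1.67, 0.74, 0.89, -0.28 and 1.37 in EOW mice, against 0.19, -0.03, 0.21 and 0.64 in SD mice, with EOW mouse 4 below and the other EOW mice above every SD mouse (0.62 ± 0.31, adjusted p = 0.385, and 0.91 with 0.125 without that mouse). Gpd1, the cytosolic glycerol-3-phosphate dehydrogenase, was lower (-0.49 ± 0.17, adjusted p = 0.243, and -0.32 without SD mouse 3), and Got1, a cytosolic transaminase, was at 4.03 in EOW mouse 5 and 1.43 to 2.44 in the other EOW mice, against 1.03 to 1.99 in SD mice (0.84 ± 0.43, adjusted p = 0.401, and 0.40 without EOW mouse 5). In AMPK, mTORC1 and insulin signalling, 1 of 17 genes was higher and 1 lower, also close to those shares. Irs2, an insulin receptor substrate, was at 1.52 to 2.81 in EOW mice and 1.06 to 1.64 in SD mice (0.77 ± 0.25, adjusted p = 0.236). Prkaa2, the alpha2 catalytic subunit of AMPK, was at 1.01 to 1.32 in EOW mice and 1.34 to 2.19 in SD mice without overlap (-0.44 ± 0.17, adjusted p = 0.277, and -0.26 without SD mouse 3). Its other detected probe was at -0.22 to 0.16 in EOW mice and -0.13 to 0.16 in SD mice (adjusted p = 0.992). The 2 transporters of metformin that were measured, of 6 on the array, were the carnitine carrier Slc22a5 and the extruder Slc47a1, which differed by 0.11 ± 0.18 and 0.26 ± 0.19.

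Major urinary proteins and other male-biased genes were lower in EOW livers. All 5 detected major urinary protein genes were lower at an unadjusted p under 0.05, against 7.8% of all genes, with a median of -2.74 (-2.49 without EOW mouse 4). These pheromone carriers are encoded by near-identical genes on chromosome 4, and their probes can take up each other's RNA, as can those of the Cyp2d, Cyp4a12, carboxylesterase and ribosomal protein genes. Mup5 was at 0.69, 4.13, 2.94, 1.90 and 1.97 in EOW mice, against 4.92, 5.34, 5.20 and 4.81 in SD mice. All EOW mice were lower, EOW mouse 2 by the least, and leaving that mouse out brought the gene under the adjusted threshold (-2.74 ± 0.57, adjusted p = 0.126, and 0.0419 without EOW mouse 2). Mup6 was at 3.12, 5.25, 4.81, 3.71 and 4.70 in EOW mice, against 5.59 to 6.18 in SD mice (-1.65 ± 0.40, adjusted p = 0.16). Mup21 (-2.79 ± 0.71), Mup20 (-2.78 ± 0.82) and Mup2 (-1.09 ± 0.34) had adjusted p of 0.172, 0.203 and 0.22, and in each EOW mouse 2 alone reached the SD range. The median deviation of the 5 genes was -3.54, -0.52, -2.13, -3.17 and -3.10 in EOW mice 1 to 5, against -0.40 to 0.27 in SD mice. Of 11 other male-biased genes all had a negative difference, where 47.9% of all genes had a positive one. At an unadjusted p under 0.05, 7 were lower, against 7.8% of all genes, with a median of -1.31 over the 11. Cyp2d9, a testosterone hydroxylase, was at 3.41 to 4.79 in EOW mice and 5.09 to 5.87 in SD mice (-1.31 ± 0.34, adjusted p = 0.174). Nudt7, a peroxisomal CoA diphosphatase, was at 3.48 to 5.47 in EOW mice and 5.10 to 6.07 in SD mice (-1.44 ± 0.39, adjusted p = 0.192). The SD mice themselves varied widely in the steroid enzymes: Hsd3b5 was at -0.93 to 0.26 in EOW mice, against 0.00, 3.04, 4.58 and 0.94 in SD mice (-2.65 ± 0.98, adjusted p = 0.269). In EOW mice 1 and 5 Hsd3b5 was near background, at -0.82 and -0.93, so that its place among the 7 lower is no support. Cyp4a12a was at 0.71, 1.95, 0.59, -0.41 and 1.06 in EOW mice, against 1.19, 3.43, 4.76 and 2.40 in SD mice (-2.17 ± 0.78, adjusted p = 0.259). Of 9 female-biased genes, 8 had a positive difference, against 47.9% of all genes, and 0 were past an unadjusted p of 0.05. Their median was 0.51, and 0.22 without EOW mouse 1. Among them were the thioesterase Acot3 (0.84 ± 0.54) and Cyp4a14 (0.78 ± 0.53), while the receptor Ntrk2 was at -0.45 ± 0.41. With 1 mouse left out these were 0.44 for Acot3 (EOW mouse 1), and 0.27 for Cyp4a14 and -0.12 for Ntrk2 (SD mouse 2).

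In the growth hormone, IGF and thyroid group, 4 of 12 genes were higher and 3 lower at an unadjusted p under 0.05, against 6.47% and 7.8% of all genes. The median was 0.07 (-0.04 without SD mouse 1). Socs2, a feedback inhibitor of the growth hormone receptor, was at 3.73, 2.87, 3.55, 3.69 and 3.55 in EOW mice, against 2.10, 1.27, 2.86 and 2.30 in SD mice. EOW mouse 2 lay just above SD mouse 3 (1.34 ± 0.33, adjusted p = 0.162). Cish, another such inhibitor, which was chosen after its values were seen, was at 2.48, 1.71, 2.27, 3.70 and 2.18 in EOW mice, against 0.79, 0.40, 2.12 and 1.35 in SD mice (1.31 ± 0.53, adjusted p = 0.302). Ghr, the receptor itself, was lower in every EOW mouse, at 3.77 to 4.43 against 4.54 to 5.01 in SD mice (-0.50 ± 0.17, adjusted p = 0.239). Igfbp1, a binding protein of IGF that insulin represses, was at 1.04, 1.31, 1.54, 1.65 and 4.31 in EOW mice, against 0.84, -0.45, 0.18 and 0.05 in SD mice. The groups did not overlap, and EOW mouse 5 was far above the others (1.82 ± 0.67, adjusted p = 0.27). Igfbp2 was at 3.93 to 4.54 in EOW mice and 3.66 to 4.02 in SD mice (0.40 ± 0.13, adjusted p = 0.224), while Igf1 and Igfals differed by 0.07 and 0.04. Dio1, the deiodinase that makes active thyroid hormone, was at -0.17, 1.57, 1.17, 0.33 and 0.67 in EOW mice, against 2.38, 2.02, 3.50 and 1.28 in SD mice (-1.58 ± 0.43, adjusted p = 0.192). Bcl6, a male-biased repressor that binds many of the STAT5 sites in mouse liver, was at 1.61, 2.34, 1.33, -1.58 and 1.57 in EOW mice, against 3.40, 3.18, 1.85 and 3.61 in SD mice (-1.96 ± 0.77, adjusted p = 0.293). Its probe was at background in EOW mouse 4, and without that mouse the difference was -1.30 with an adjusted p of 0.335.

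The letters of a STAT element, searched as TTCNNNGAA, which reads alike on both strands, stood in a promoter window of 4 of the 11 genes of this group with a promoter in the table (Bcl6, Cish, Igfals and Socs3), against 9.55% of all genes, and in 0 of the 3 major urinary protein genes with a promoter there. Of these 4, the promoter of Bcl6 is printed because one of its starts carries 3 such elements in the 250 bases before it. They are chr16:23981284-23981533 on the minus strand (GRCm38.p6, RefSeq), the elements begin 168, 122 and 88 bases before the start, and they are in capitals.
Bcl6: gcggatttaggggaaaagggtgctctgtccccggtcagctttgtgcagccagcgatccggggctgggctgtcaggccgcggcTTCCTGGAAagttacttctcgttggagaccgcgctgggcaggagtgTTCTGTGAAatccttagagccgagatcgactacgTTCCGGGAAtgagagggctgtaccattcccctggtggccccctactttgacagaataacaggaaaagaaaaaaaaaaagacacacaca
Beside Bcl6, which was lower, the differences were 1.31 for Cish, 0.77 for Socs3 (adjusted p = 0.405) and 0.04 for Igfals.

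Enzymes that hydrolyse and conjugate lipids and drugs held several of the lower genes. Of 9 carboxylesterases, 5 were lower at an unadjusted p under 0.05, all 5 without overlap, against 2.35% of all genes, and 0 were higher. The median was -0.40 (-0.33 without EOW mouse 4). All 9 lie on chromosome 8, and their differences were unlike. Ces1f was at 2.89, 3.97, 3.55, 2.29 and 2.36 in EOW mice, against 4.35, 4.62, 4.56 and 4.95 in SD mice (-1.61 ± 0.32, adjusted p = 0.121, and 0.0419 without EOW mouse 2). Ces1e was at 1.49, 1.36, 1.52, 0.47 and 1.42 in EOW mice, against 2.49, 2.16, 2.22 and 2.65 in SD mice (-1.13 ± 0.23, adjusted p = 0.121). Apart from EOW mouse 4, the EOW mice were all between 1.36 and 1.52. Ces3b, a triglyceride hydrolase family member, was at 2.98, 3.69, 2.70, 1.66 and 3.25 in EOW mice, against 3.88, 4.45, 4.97 and 4.28 in SD mice (-1.54 ± 0.39, adjusted p = 0.172). In contrast, Ces1b was at 5.39 to 6.21 in EOW mice and 5.15 to 5.64 in SD mice (0.29 ± 0.17, adjusted p = 0.447, and 0.17 without EOW mouse 1), and Ces1c, Ces1d and Ces1g differed by 0.27, 0.03 and -0.07. Among 14 glucuronosyltransferases and sulfotransferases, 1 was higher and 5 lower, 4 of them without overlap, against 6.47%, 7.8% and 2.35% of all genes. Sult2a8, a bile acid sulfotransferase of mouse liver, was at 1.79, 3.48, 1.78, 0.14 and 1.12 in EOW mice, against 3.62, 3.95, 4.73 and 4.24 in SD mice (-2.47 ± 0.59, adjusted p = 0.157). Ugt2b1 was at 2.15, 2.50, 2.60, 0.33 and 2.49 in EOW mice, against 3.16 to 3.75 in SD mice (-1.42 ± 0.39, adjusted p = 0.192, and -1.0 with 0.0676 without EOW mouse 4). Ugt2b35 (-0.65 ± 0.14, adjusted p = 0.131) and Ugt3a1 (-1.19 ± 0.29, adjusted p = 0.16) were also lower in every EOW mouse. Sult1a1, the phenol sulfotransferase, was the higher one, at 5.58 to 6.71 in EOW mice and 5.18 to 5.74 in SD mice (0.65 ± 0.22, adjusted p = 0.248).

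**Figure D4:**
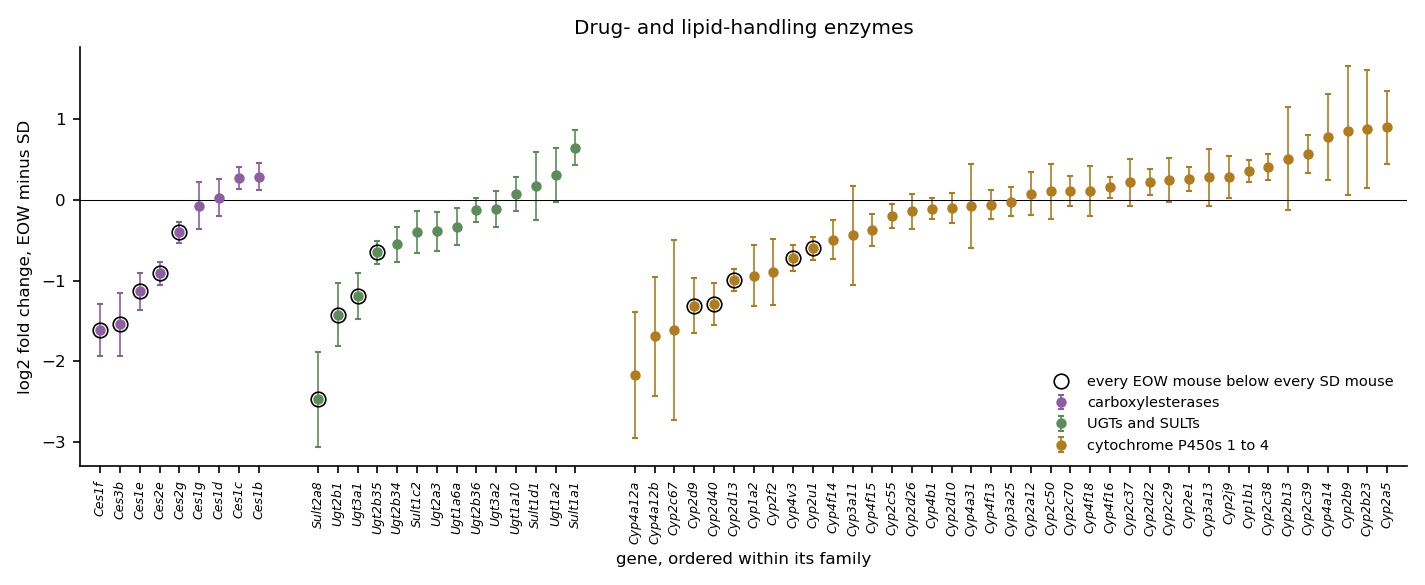
Log2 fold change, EOW minus SD, with the standard error of the fit, of 9 carboxylesterases, 14 glucuronosyltransferases (UGTs) and sulfotransferases (SULTs) and 39 cytochrome P450s of families 1 to 4, ordered within each family. Circles mark genes with every EOW mouse below every SD mouse, 5 carboxylesterases, 4 conjugating enzymes and 5 P450s, and no gene of the 3 families has every EOW mouse above every SD mouse.

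Cytochrome P450s of families 1 to 4 spread in both directions, with 3 of 39 higher and 9 lower at an unadjusted p under 0.05 and a median of -0.02 (5 higher, 6 lower and 0.13 without EOW mouse 4). The shares of all genes were 6.47% and 7.8% (6.31% and 7.91% without that mouse). Cyp2d40, a neighbour of Cyp2d13 in its subfamily, was at 2.16, 2.23, 2.14, 1.22 and 1.94 in EOW mice, against 2.86, 3.19, 4.08 and 2.81 in SD mice (-1.29 ± 0.26, adjusted p = 0.121). Cyp4v3, a fatty acid hydroxylase, was at 3.46 to 3.91 in EOW mice and 4.09 to 4.54 in SD mice (-0.72 ± 0.16, adjusted p = 0.15). Cyp2u1 was lower as well (-0.60 ± 0.14, adjusted p = 0.151), with EOW mice near background at -0.95 to -0.68. Its place among the 9 lower P450s and among those without overlap is therefore no support. The largest positive difference was that of Cyp2a5, a coumarin hydroxylase, at 4.47 to 6.64 in EOW mice and 3.76 to 5.72 in SD mice with wide overlap (0.90 ± 0.45, adjusted p = 0.384, and 0.59 without EOW mouse 1). Of 20 glutathione S-transferases 0 were higher and 2 lower, with Gstm6 at -0.76 ± 0.25 (adjusted p = 0.236). Gclc, the catalytic subunit of glutathione synthesis, was at -0.28 to 0.52 in EOW mice and 0.41 to 1.00 in SD mice (-0.69 ± 0.18, adjusted p = 0.174). In retinoid handling, Rdh9 was the 1 higher gene of 17. The retinal dehydrogenase Aldh1a1 was at 2.96 to 4.22 in EOW mice and 4.23 to 4.86 in SD mice (-0.80 ± 0.29, adjusted p = 0.268), and the retinal reductase Dhrs4 was lower (-0.57 ± 0.18, adjusted p = 0.222). Uptake carriers differed in direction: Slco1a4 was at 2.21, 1.75, 1.73, 1.93 and 3.08 in EOW mice, against 1.42, 0.84, 0.84 and 1.47 in SD mice (1.00 ± 0.27, adjusted p = 0.189), whereas Slco1b2, the main hepatic organic anion carrier, was at 3.65 to 4.25 in EOW mice and 4.51 to 4.77 in SD mice (-0.52 ± 0.18, adjusted p = 0.246).

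Cytosolic ribosomal proteins were higher by a small amount in many members. Of 55, 33 were higher and 0 lower at an unadjusted p under 0.05, against 6.47% and 7.8% of all genes, and the median was 0.37 (0.35 without EOW mouse 4). With each array centred on its median it was 0.13. Other detected probes did not always follow the brightest probe. Rps19 was at 0.53 and -0.06, Rpl31 at 0.30 and -0.08, and Rpl38 at 0.27 and -0.06. Rpl29 was at 0.43 and 0.08, Rps24 at 0.42 and 0.06, and Rpl21 at -0.03 and 0.02. In contrast, Rps9 was at 0.66 on both probes, Rps3 at 0.47 and 0.61, and Rpl23 at 0.32, 0.29 and 0.10. Rps9 was at 5.56, 4.93, 5.05, 5.45 and 5.33 in EOW mice, against 4.64, 4.46, 4.46 and 4.88 in SD mice (0.66 ± 0.15, adjusted p = 0.15). Rpl3 was at 5.97 to 6.64 in EOW mice and 5.04 to 5.89 in SD mice (0.68 ± 0.17, adjusted p = 0.172), and Rps16 (0.57 ± 0.14) and Rpl27 (0.60 ± 0.17) had adjusted p of 0.172 and 0.197. Only 3 of the 55 were without overlap, since EOW mice 2 and 3, with median deviations of 0.12 and 0.18, lay below SD mouse 4 at 0.26, while EOW mice 1, 4 and 5 were at 0.65, 0.52 and 0.47. Rps10 was at 5.49, 4.83, 4.77, -1.58 and 4.95 in EOW mice, against 4.39 to 4.95 in SD mice, and its difference of -0.90 became 0.42 without EOW mouse 4, in which its probe was at background. Mitochondrial ribosomal proteins had 1 of 70 members higher and 8 lower and a median of -0.08, and the lower count was close to the 7.8% of all genes. Mrpl49 was at 1.49 to 2.14 in EOW mice and 2.19 to 2.41 in SD mice (-0.40 ± 0.13, adjusted p = 0.22), and Mrps21 was lower without overlap (-0.37 ± 0.13, adjusted p = 0.245), whereas Mrps26 was at 0.28 ± 0.11 (adjusted p = 0.304). Of 47 translation initiation and elongation factors, 8 were higher and 2 lower, against the same 6.47% and 7.8% (median 0.07). The helicase Eif4a1 was at 4.83 to 5.43 in EOW mice and 4.45 to 4.75 in SD mice without overlap (0.44 ± 0.12, adjusted p = 0.193). The subunits of complex I, on which metformin acts, gave 1 higher and 1 lower of 39 (median -0.05, range -0.27 to 0.26), and those of complexes II to V gave 1 higher and 0 lower of 38 (median 0.03), and without EOW mouse 4 these were 4 higher and 0 lower.

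**Figure D5:**
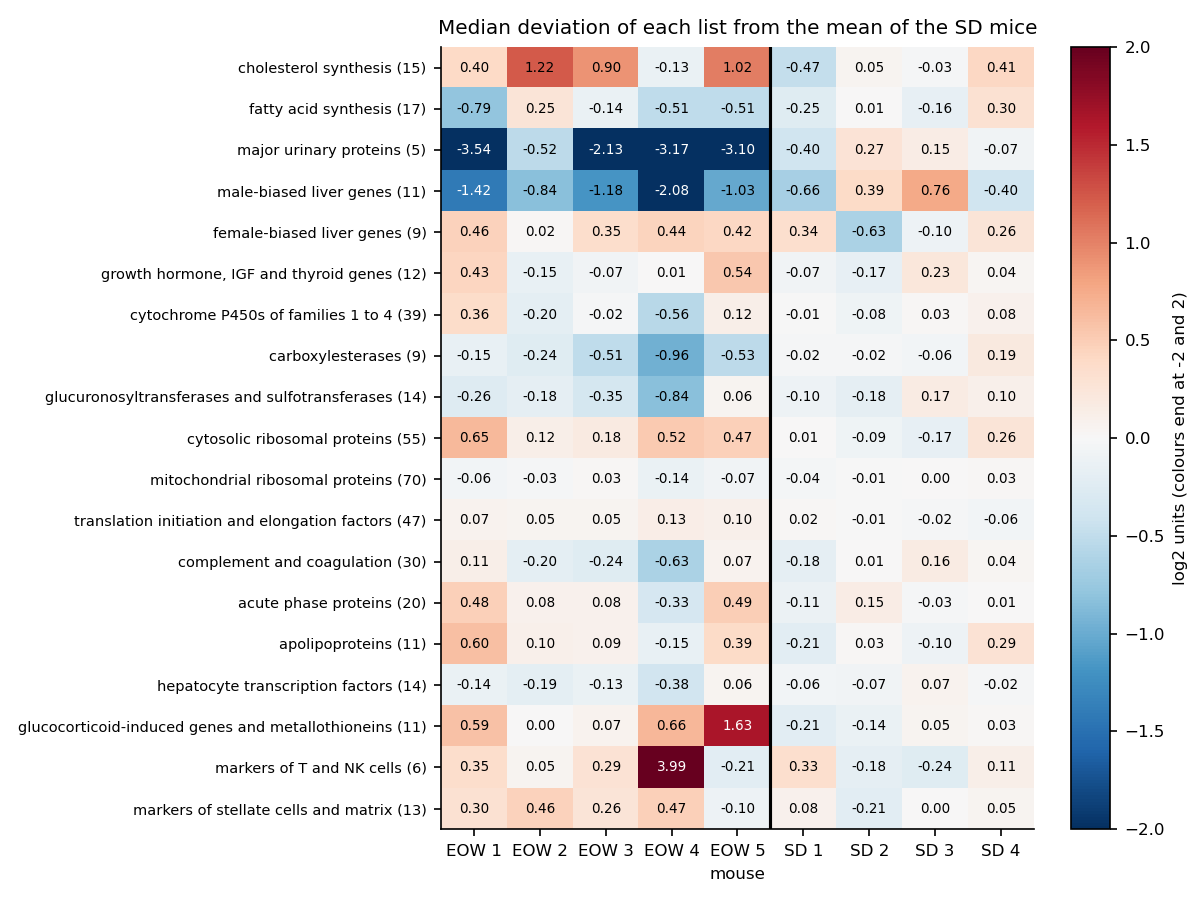
Median deviation of the members of 19 gene lists from the mean of the SD mice (log2 units, number of genes measured in brackets) in each EOW mouse (left) and each SD mouse (right). Major urinary proteins are at -3.54 to -0.52 in EOW mice, the T and NK cell markers stand out in EOW mouse 4 at 3.99, and the glucocorticoid-induced genes stand out in EOW mouse 5 at 1.63.

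Secreted defence proteins of the liver were lower in part. Of 30 complement and coagulation genes, 1 was higher and 7 lower at an unadjusted p under 0.05, 4 of them without overlap. Of all genes, 6.47% were higher, 7.8% lower and 2.35% lower without overlap. The median of the 30 was -0.17 (-0.04 without EOW mouse 4). C8a, a chain of the membrane attack complex, was at 2.04, 3.15, 3.14, 1.96 and 2.63 in EOW mice, against 3.47, 3.68, 3.96 and 3.38 in SD mice (-1.04 ± 0.26, adjusted p = 0.17). The lectin pathway had Masp2, its protease, at 3.42, 3.77, 3.63, 2.60 and 3.63 in EOW mice, against 3.82 to 4.51 in SD mice (-0.76 ± 0.21, adjusted p = 0.195), and Mbl1, its mannose-binding lectin, at 2.63 to 3.69 against 3.81 to 4.37 in SD mice (-0.75 ± 0.21, adjusted p = 0.197). Klkb1, plasma prekallikrein, was at 2.19 in EOW mouse 4 and 3.33 to 3.51 in the other EOW mice, against 3.62 to 4.15 in SD mice (-0.68 ± 0.23, adjusted p = 0.245, and -0.43 without EOW mouse 4). Pros1, the anticoagulant protein S, was the higher one (0.39 ± 0.16, adjusted p = 0.298, and 0.24 without EOW mouse 5). Among 20 acute phase proteins 2 were higher and 1 lower, close to the shares of all genes, and without EOW mouse 4 there were 7 higher. The lower one, Saa4, the constitutive serum amyloid A, was at 3.66, 3.25, 3.66, 2.03 and 3.77 in EOW mice, against 4.15, 4.27, 4.63 and 3.84 in SD mice (-0.95 ± 0.31, adjusted p = 0.235, and -0.64 without EOW mouse 4). Il1rn, the interleukin 1 receptor antagonist, was at -0.18 to 0.50 in EOW mice and -0.60 to -0.29 in SD mice (0.43 ± 0.13, adjusted p = 0.207). The median of the acute phase list was 0.26 and that of 11 apolipoproteins, 3 of them higher and 0 lower, was 0.18, but with median centring they were -0.05 and -0.10, and without EOW mouse 1 they were 0.14 and 0.1. Of 14 hepatocyte transcription factors 0 were higher and 5 lower (median -0.19, and -0.08 without EOW mouse 4). Cebpa was at 0.73, 1.51, 0.83, -0.93 and 0.57 in EOW mice, against 1.41, 2.03, 2.71 and 1.48 in SD mice (-1.37 ± 0.43, adjusted p = 0.22), and Nr1h3, the oxysterol receptor LXR alpha, was lower (-0.43 ± 0.14, adjusted p = 0.224), while Cebpb was at 0.56 ± 0.27 (adjusted p = 0.379, and 0.36 without EOW mouse 5).

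Among genes of hormonal and daily rhythm, Per1, a clock component induced by glucocorticoids, was at 2.55, 1.60, 1.09, 2.37 and 2.88 in EOW mice, against -0.15, 0.66, -0.09 and 1.59 in SD mice. EOW mouse 3 was below SD mouse 4 (1.59 ± 0.40, adjusted p = 0.172). Fkbp5, another glucocorticoid target, was at 2.32 and 2.60 in EOW mice 1 and 5 and at 0.32 to 1.34 in EOW mice 2, 3 and 4, against 0.33 to 0.75 in SD mice (0.97 ± 0.38, adjusted p = 0.294). The 11 glucocorticoid-induced genes and metallothioneins had 2 higher and 0 lower members and a median of 0.42, which was 0.14 without EOW mouse 5, the mouse with the highest deviation at 1.63. Of all genes, 6.47% were higher and 7.8% lower. Per1 was the 1 gene past an unadjusted p of 0.05 among 12 clock genes (8.09% of all genes hold an E-box in a promoter window, and 2 of the 10 clock genes with a promoter in the table do). It is printed because its E-box can be set beside that of Rdh9 above. The 250 bases before one of its starts on the plus strand are chr11:69098699-69098948 (GRCm38.p6, RefSeq), with the E-box in capitals, 166 bases before the start.
Per1: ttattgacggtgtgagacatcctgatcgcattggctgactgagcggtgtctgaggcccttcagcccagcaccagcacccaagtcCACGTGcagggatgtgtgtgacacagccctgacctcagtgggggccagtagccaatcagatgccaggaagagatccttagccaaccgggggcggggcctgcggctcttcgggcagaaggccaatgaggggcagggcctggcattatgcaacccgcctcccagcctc
The part of the hour of collection in the values of such genes was not tested.

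In heme and iron metabolism, Alas1, the first enzyme of heme synthesis in liver, was at 5.89, 5.03, 5.05, 5.54 and 5.91 in EOW mice, against 3.81, 5.09, 3.97 and 4.46 in SD mice. SD mouse 2 lay above EOW mice 2 and 3 (1.15 ± 0.28, adjusted p = 0.16). Tfrc, the transferrin receptor, was at 1.58 to 3.02 in EOW mice and 0.84 to 1.54 in SD mice without overlap (0.90 ± 0.29, adjusted p = 0.228). Alas2, the erythroid form of the enzyme, was at -0.38, 0.88, 0.28, 0.90 and -0.30 in EOW mice, against 1.56, 2.66, 3.08 and 1.66 in SD mice (-1.96 ± 0.47, adjusted p = 0.157). The other erythroid marker that was tested, of 4 on the array, Hba-a1, did not separate the groups (0.55 to 4.74 in EOW mice and 2.28 to 4.04 in SD mice, difference -0.42 ± 0.74). The summed signal of both markers was 587 to 7400 in EOW mice and 3429 to 5005 in SD mice, and the part of red cells in the Alas2 result was not tested. In the citric acid cycle, Mdh2, the mitochondrial malate dehydrogenase, was at 2.12 to 2.72 in EOW mice and 1.67 to 2.06 in SD mice without overlap (0.57 ± 0.13, adjusted p = 0.151), and Idh2, the mitochondrial isocitrate dehydrogenase that makes NADPH, was higher (0.64 ± 0.19, adjusted p = 0.211). The cytosolic counterpart Idh1 was at 3.86 to 4.75 in EOW mice and 4.53 to 4.76 in SD mice (-0.29 ± 0.17, adjusted p = 0.448, and -0.18 without EOW mouse 1), and Aco1, the cytosolic aconitase and iron regulatory protein, was lower in every EOW mouse (-0.37 ± 0.12, adjusted p = 0.23, and -0.24 without SD mouse 3). Of 10 p53 targets and senescence genes 2 were higher, against 6.47% of all genes. Among them was Sesn1, a stress-induced inhibitor of mTORC1, at 1.62 to 2.09 in EOW mice and 0.96 to 1.59 in SD mice (0.68 ± 0.17, adjusted p = 0.168), where another detected probe gave 0.22.

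The remaining genes with the largest differences and no overlap were of diverse roles. Slpi, a secreted inhibitor of neutrophil elastase, was at 3.33, 1.96, 2.91, 1.98 and 1.59 in EOW mice, against 1.11, 0.23, 0.34 and 0.35 in SD mice (1.85 ± 0.41, adjusted p = 0.15). Ccn2, connective tissue growth factor, was at 3.22, 3.29, 2.79, 3.89 and 3.11 in EOW mice, against 1.74, 1.81, 1.11 and 1.65 in SD mice. The groups were nearly 1 unit apart (1.68 ± 0.42, adjusted p = 0.164, and 0.0429 without 2WM mouse 2). Nt5e, the ectonucleotidase CD73, was at 3.98 in EOW mouse 4 and 1.22 to 2.35 in the other EOW mice, against 0.77 to 1.20 in SD mice (1.20 ± 0.45, adjusted p = 0.277, and 0.75 without that mouse). Cd63, a tetraspanin of late endosomes, was at 2.67, 1.71, 2.04, 2.12 and 1.16 in EOW mice, against 0.68 to 1.07 in SD mice (1.03 ± 0.26, adjusted p = 0.172). Arrdc4, an arrestin-domain protein related to the glucose-responsive Txnip, was higher (0.98 ± 0.23, adjusted p = 0.152), as was Mfge8, a bridging protein for the uptake of apoptotic cells, at 2.75 to 3.78 in EOW mice and 2.23 to 2.60 in SD mice (0.95 ± 0.19, adjusted p = 0.121). On the lower side, Car3, the carbonic anhydrase abundant in male liver, was at 3.17, 5.12, 4.18, 1.43 and 0.95 in EOW mice, against 5.46, 5.28, 5.91 and 5.80 in SD mice. EOW mouse 2 was next to the SD mice and EOW mice 4 and 5 far below (-2.64 ± 0.72, adjusted p = 0.192). Nat8, an acetyltransferase of cysteine conjugates (-1.44 ± 0.41, adjusted p = 0.201), and Keg1, a glycine acyltransferase-like gene (-1.43 ± 0.37, adjusted p = 0.174), were lower in every EOW mouse as well.

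Markers of stellate cells and matrix were higher in part, with 6 of 13 higher and 0 lower at an unadjusted p under 0.05, against 6.47% and 7.8% of all genes. The median was 0.31, which was 0.28 with 3 higher without EOW mouse 4 and 0.54 after neqc. The difference was positive in 11 and negative in 2. Lrat was the lowest at -0.12, and Acta2 was at 0.04, with its other detected probes at 0.04 and -0.21. The 3 genes named next are matrix proteoglycans. Their summed signal was 24087 to 39117 in EOW mice (24087 to 27579 without EOW mouse 4) and 16191 to 23727 in SD mice. Bgn, the proteoglycan biglycan, was at 4.34, 4.44, 4.47, 4.86 and 4.37 in EOW mice, against 4.05, 3.70, 3.81 and 4.38 in SD mice (0.51 ± 0.15, adjusted p = 0.201). Decorin, Dcn (0.65 ± 0.21), and lumican, Lum (0.72 ± 0.27), had adjusted p of 0.224 and 0.28, and both were highest in EOW mouse 4. The part of these cells in the Ccn2 result was not tested. 7 dim genes were detected on every array of EOW and on none of SD or the reverse. Pde6c was at least 1.42-fold and Map3k6 at least 1.38-fold higher in EOW, with adjusted p of 0.358 and 0.304, and Septin6 and Anks6 at least 1.12-fold and 1.03-fold. Cidea was at least 1.68-fold, Serpina4-ps1 at least 1.6-fold and Mtf1 at least 1.09-fold lower in EOW, with adjusted p of 0.22, 0.192 and 0.259. The log2 difference of Pde6c was 0.68, and 0.32 without EOW mouse 1, that of Map3k6 was 0.56, and 0.30 without EOW mouse 5, and that of Cidea was -0.82, and -0.53 without SD mouse 3. Each bound sets the mean of the detected group against the higher of the dim signal itself and the lowest detected signal of each array, on the scaled values. Lists that lay close to the shares of all genes were proteasome subunits (1 higher and 1 lower of 33), interferon-stimulated genes (0 and 1 of 25), the integrated stress response (0 and 0 of 13), and methionine and one-carbon metabolism (0 and 0 of 15). Trib3, a stress-induced pseudokinase, was at -0.64 to -0.33 in EOW mice and -0.76 to -0.40 in SD mice (0.14 ± 0.10, adjusted p = 0.519).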

How the data were processed

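Total RNA from single livers was hybridised to Illumina BeadArrays, 1 colour each. The authors exported with GenomeStudio (2011.1 in the submitters' processing notes) a signal intensity and a detection p-value for each probe, not normalized, and deposited them together with a table of Z scores. Those deposited scores equalled the Z score of the log2 intensity within each array to within 0.0001. Of the probes, 23978 had 1 gene symbol and 1719 none. Columns of no sample numbered 0. The authors' p-values other than detection were not used.

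Log2 intensities were turned into Z scores per array and multiplied by the mean SD of the arrays (1.462), and repeat arrays of a mouse (r = 0.996 and 0.994) were averaged. Probes with a detection p-value under 0.05 on every array of EOW or of SD were fitted with limma 3.58.1 in R 4.3.3 (lmFit and eBayes, 13 mice in 3 groups), with Benjamini-Hochberg adjustment over 10940 probes. Where several probes named 1 gene, the one with the highest mean level stood for it. Errors are standard errors of the fit unless called SD. On simulated data with 10940 probes, 87% of changes of 1 log2 unit and 97% of changes of 2 were recovered, with 11 false calls. The simulated noise was normal and independent between probes and mice, with no array apart such as that of EOW mouse 4. These shares check the code and do not give the power in the measured arrays.

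Genes were named by a rule: those the study names, the 12 largest and 8 smallest p in each direction among genes at an unadjusted p under 0.05 without overlap, up to 4 members and 1 contrary member of each list, and those detected in 1 group only. Mup1, Mup4 and Srd5a1 were not among the genes tested. Cish, Igf1, Igfals, Socs3, Tm7sf2, Ebp, Dhcr7, Acaca, Trf, Serpina1a, Ces1c, Ces1d and Ces1g fall outside the rule and were chosen after their values were seen. The same holds for Acta2, Rps19, Rpl31, Rpl38, Rpl29, Rps24, Rps3, Rpl23 and Rpl21. The members, the 55 gene lists and the count of probes at background were chosen with earlier results of these data known, and genes the study chose on these samples are no independent evidence of a direction. Promoters were taken from RefSeq (GRCm38.p6, 250 bases before to 50 after a start) for 6323 of the 7702 genes and searched in 32851 windows. Alternatives were neqc, quantile normalization, median centring, the deposited scores, other detection filters, single repeat arrays, genes in place of probes, EOW and SD alone, a replicate block, a variance trend, array weights, the methods' criteria and leaving out each mouse.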

Additional observations from a re-analysis of the deposited data

Results flagged for a closer look

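Of 278 groups of values examined, 26 held 1 mouse far from the rest of its group by Dixon's criterion, which chance alone meets in about 1 group in 20. EOW mouse 4 was the mouse apart in 11 of them, SD mouse 3 in 4, EOW mouse 5 and SD mouse 4 in 3 each, EOW mice 1 and 2 in 2 each and SD mouse 1 in 1. No cause was tested.

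EOW mouse 4 was below the other EOW mice in Ces1e at 0.47 (others 1.36 to 1.52), Cyp2d40 at 1.22 (1.94 to 2.23), Ugt2b1 at 0.33 (2.15 to 2.60), Stard4, a carrier of cholesterol, at 3.06 (3.54 to 3.71), Mrps21 at 2.12 (2.59 to 2.66), Klkb1 at 2.19 (3.33 to 3.51) and Slco1b2 at 3.65 (4.10 to 4.25). Its probes of Bcl6 and Rps10, both at background, read -1.58 (1.33 to 2.34 and 4.77 to 5.49 in the other EOW mice). It was above them in Bgn at 4.86 (4.34 to 4.47) and in the T and NK cell markers at 3.99 (-0.21 to 0.35).

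EOW mouse 5 was above the other EOW mice in Igfbp1 at 4.31 (1.04 to 1.65) and Map3k6 at 0.80 (-0.67 to -0.30) and below them in Acaa1b at 3.56 (5.07 to 5.55). EOW mouse 1 was above in Il1rn at 0.50 (-0.18 to -0.01) and Pde6c at 1.28 (-0.68 to -0.27), and EOW mouse 2 was below in Socs2 at 2.87 (3.55 to 3.73) and in the female-biased genes at 0.02 (0.35 to 0.46).

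Among SD mice, mouse 3 was above the others in Decr1 at 1.67 (0.69 to 0.73), Idh1 at 4.76 (4.53 to 4.56) and Slco1b2 at 4.77 (4.51 to 4.55) and below them in Eif4a1 at 4.45 (4.72 to 4.75). SD mouse 4 was nearer to the EOW mice in Rdh9 at 2.92 (2.24 to 2.32), farther from them in Srebf2 at 0.21 (0.38 to 0.40) and above the other SD mice in the carboxylesterases at 0.19 (-0.06 to -0.02). SD mouse 1 was above in Slpi at 1.11 (0.23 to 0.35).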

How the results depend on the processing

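The count of 0 probes at an adjusted p under 0.05 in limma (1533 at an unadjusted p under 0.05) became 1 with neqc, 5 with median centring, 4 with a detection p under 0.01, 14 with array weights and 0 to 6 with 1 mouse left out (6 without EOW mouse 2, 4 without SD mouse 4), against 1005 at an adjusted p under 0.30 and 350 by the methods' criteria. Without a filter on dim probes, 2471 passed the unadjusted threshold, 1178 of them higher, and 724 did not overlap, against 462. With median centring 285 were higher and 1607 lower, and with genes in place of probes 589 were lower. With 1 mouse left out the unadjusted count was 905 (without SD mouse 3) to 1857 (without SD mouse 4), with 380 to 776 higher, 525 to 1164 lower and 462 to 1129 not overlapping. The replicate numbers do not pair the mice (r of the deviations of EOW and SD mice with 1 number -0.176 to 0.203), and the replicate block, which drops EOW mouse 5, made 1 call, Sftpd. The block on the list medians was added after the data were seen.

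Of 361 list medians under alternatives, 352 moved by less than the spread between mice. Median centring gave 0.13 for cytosolic and -0.19 for mitochondrial ribosomal proteins, -0.05 for acute phase proteins, -0.10 for apolipoproteins and -0.02 for translation factors, whose median was otherwise 0.07 and 0.03 to 0.08 with 1 mouse left out. With neqc the translation factors were at 0.11 and the stellate and matrix markers at 0.54. Of 3115 values of 120 genes, 3086 kept their direction and side of the adjusted threshold, 27 of 13 genes passed it, and 2 reversed, both of Rps10 (-0.90 with all mice, 0.20 with array weights and, with 1 mouse left out, -1.34 without EOW mouse 1 to 0.42 without EOW mouse 4). The cause of these differences was not tested.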
